A study of Mus musculus with 9 samples.

Results

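The genes described here are 10 transcripts of the blood vessel wall and of the growth factor system that acts on it, chosen by symbol from a table of 22054 genes measured in mouse fracture callus. They comprise the endothelial identity genes Pecam1, Cdh5 and Emcn, the receptor genes Kdr, Flt1, Tek and Tie1, and the ligand genes Vegfa, Pgf and Angpt2. All 10 symbols were found in the table, each in a single row, and all 10 passed the filter on low counts in every comparison. RNA was sequenced from callus taken 7 days after femoral fracture in male C57BL/6J mice aged 7 weeks, with 3 libraries in each of 3 groups. H-151, a small molecule that inhibits the innate immune protein STING, was injected into the abdominal cavity daily for a week at 750 nmol in 200 μl. SR-717, a STING activator, was given at 30 mg/kg in 200 μl, and control mice received 200 μl of PBS. All groups carried the same injury, a cut through the femoral shaft held with a needle in the marrow cavity, and the labels name no transgene or deleted allele. The labels do not say whether each library came from a separate mouse or from pooled mice, so p-values measure only the spread between these libraries.

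Endothelial cells line blood vessels and are held together by junction proteins such as VE-cadherin. Vascular endothelial growth factor A, released by chondrocytes, osteoblasts and inflammatory cells, signals mainly through the receptor VEGFR2, whereas VEGFR1 binds the same ligand tightly and can act as a decoy. The angiopoietins act on the receptor TIE2 and govern how stable a vessel is, with angiopoietin-2 usually opposing angiopoietin-1. In a healing fracture, vessels grow into the cartilage callus before it is replaced by bone.

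Totals ran from 16987398 to 23272480 estimated counts per library, and the 10 genes together held between 0.0975% and 0.128% of them. SR-717 replicate 1 and PBS replicate 1 stood apart from the other 7 libraries on the first principal component, which held 46.5% of the variance (scores of 100.4 and 38.97, against -28.7 to -3.87 in the others). The summed level of 6 chondrocyte markers, in library-scaled counts (CPM), was 234.9 and 1430 CPM in those libraries and 4185 to 14340 CPM in the rest. Col2a1, which encodes the main cartilage collagen, was at 49.71 CPM in SR-717 replicate 1 and at 863.4 CPM in PBS replicate 1, against 2550 to 10630 CPM elsewhere, so cartilage transcripts were low in both libraries although present. None of the markers in the 12 lists for other cell types was at 0 across a whole group. Whether these library differences played a part in any value below was not tested, and values without both libraries are given where they matter.

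Across all 9 libraries the 10 genes kept a nearly fixed order of abundance. Per unit of gene length, as the length-scaled abundance (TPM) that the authors made (mean ± SD, n = 9), the highest was Pecam1 at 183 ± 28.2, followed by Cdh5 at 136.1 ± 19.1 and Emcn at 83.4 ± 14.4. The receptors Tie1 and Kdr came next at 59.5 ± 11.0 and 34.5 ± 4.26, and Vegfa was the most abundant of the 3 ligands at 28.4 ± 7.11. Each of these genes lay above the next in 8 or 9 of the 9 libraries. The gene lengths behind the TPM are not given in the sources used here. In CPM, which is not scaled by length, Emcn (54.21 to 88.58) lay below Tie1 (106.3 to 154.4). The place of Emcn above Tie1 therefore rests on the authors' lengths. The order broke down at the bottom of the scale, with Flt1 (16.98 ± 2.35), Tek (16.9 ± 3.15), Pgf (15.6 ± 3.36) and Angpt2 (13.8 ± 2.42). Neighbours in this order differed by less than their spread. Flt1 exceeded Tek in 4 of 9 libraries, Tek exceeded Pgf in 5, and Pgf exceeded Angpt2 in 7. These are amounts of RNA in a mixed tissue, in which fewer endothelial cells and less RNA per cell cannot be told apart.

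**Figure D1:**
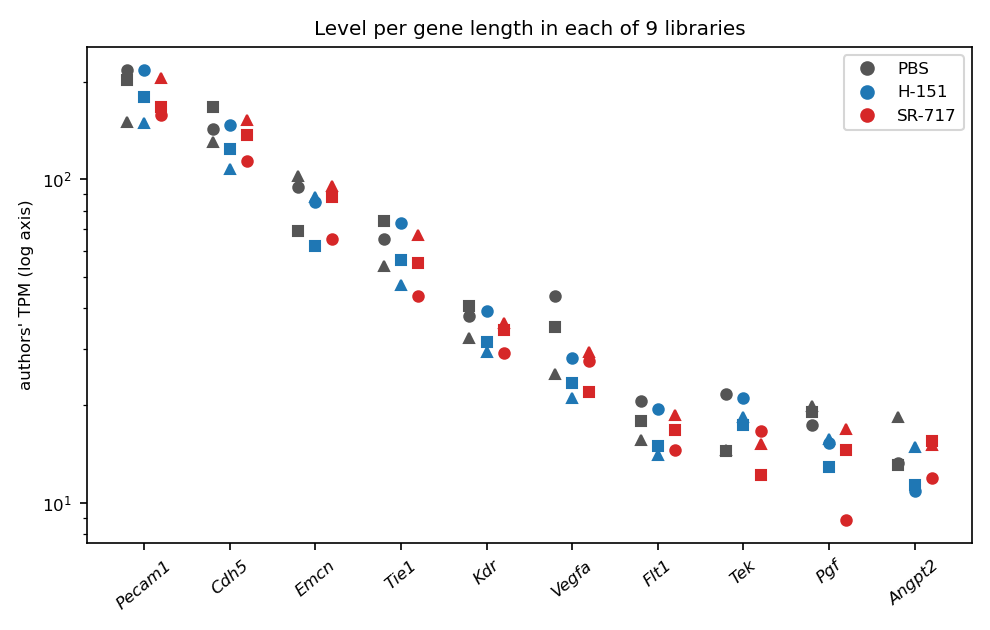
The authors' TPM of each gene (log axis) in the 3 groups, with circles, squares and triangles for replicates 1, 2 and 3. Pecam1 lies at the top with a mean of 183 TPM, and the symbols of Flt1, Tek, Pgf and Angpt2 intermix at the bottom.

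The identity genes were at similar levels in all groups. Pecam1 encodes PECAM-1 (CD31), an adhesion molecule of endothelial cells that is also present on platelets and leukocytes. Its level was 371.5, 334.8 and 275.3 CPM in PBS replicates 1 to 3, 350.2, 311.3 and 291.7 CPM with H-151, and 305.4, 310.1 and 354.7 CPM with SR-717. The ranges overlapped in all 3 pairs of groups, and PBS held both the lowest and the highest of the 9 libraries. Cdh5, which encodes VE-cadherin of the endothelial junction, was at 301.8, 339.1 and 291.0 CPM with PBS, 288.4, 263.4 and 257.6 CPM with H-151, and 269.0, 309.8 and 324.2 CPM with SR-717. All 3 H-151 libraries lay below all 3 PBS libraries for Cdh5, by a narrow margin between the closest pair. Emcn, the gene for endomucin, a surface sialomucin of capillaries and veins, was at 79.85, 55.50 and 88.58 CPM with PBS, 68.06, 54.21 and 83.80 CPM with H-151, and 63.94, 80.71 and 77.96 CPM with SR-717. Replicate 2 was the lowest library within both the PBS and the H-151 group.

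Among the receptors, Kdr was the steadiest and Tek the most variable. Kdr encodes VEGFR2, the main signalling receptor for VEGF-A, and stood at 118.3, 122.1 and 106.9 CPM with PBS, 114.0, 98.81 and 104.0 CPM with H-151, and 102.6, 115.2 and 113.5 CPM with SR-717. Its highest library exceeded its lowest by a factor of 1.24. Flt1 encodes VEGFR1 and its soluble form, which counts per gene cannot separate. Its level was 72.55, 60.90 and 58.74 CPM with PBS, 64.21, 53.37 and 56.90 CPM with H-151, and 57.75, 64.19 and 67.03 CPM with SR-717. Groups overlapped for both VEGF receptors. Tek encodes TIE2, the angiopoietin receptor, and was at 51.91, 32.96 and 36.87 CPM with PBS, 46.79, 41.62 and 50.69 CPM with H-151, and 44.38, 31.49 and 36.52 CPM with SR-717. The highest Tek library in the PBS and SR-717 groups was replicate 1, the library that stood apart. Tie1, the gene for the partner receptor TIE1, was at 141.2, 154.4 and 122.7 CPM with PBS, 146.4, 122.0 and 115.5 CPM with H-151, and 106.3, 127.5 and 145.8 CPM with SR-717.

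The ligands showed the widest differences of the 10 genes. Vegfa was at 69.50, 55.12 and 43.34 CPM with PBS, 42.99, 38.95 and 39.10 CPM with H-151, and 51.86, 37.77 and 47.17 CPM with SR-717. The 3 H-151 libraries were closely grouped below all PBS libraries, although the highest of them was next to PBS replicate 3. Pgf encodes placental growth factor, which binds VEGFR1 and not VEGFR2. It was at 14.54, 15.31 and 17.68 CPM with PBS, 11.85, 10.80 and 14.92 CPM with H-151, and 8.344, 13.23 and 14.24 CPM with SR-717. For Pgf it was the SR-717 group that lay wholly below PBS. Angpt2 encodes angiopoietin-2, stored and released by endothelial cells, and was at 24.95, 23.65 and 36.65 CPM with PBS, 18.95, 21.36 and 31.83 CPM with H-151, and 25.29, 31.39 and 28.59 CPM with SR-717. In both the PBS and the H-151 group Angpt2 was highest in replicate 3. Angpt2 lies within the gene Mcph1 on the opposite strand without shared exon bases, and how strand entered the counting is not given in the sources used here.

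**Figure D2:**
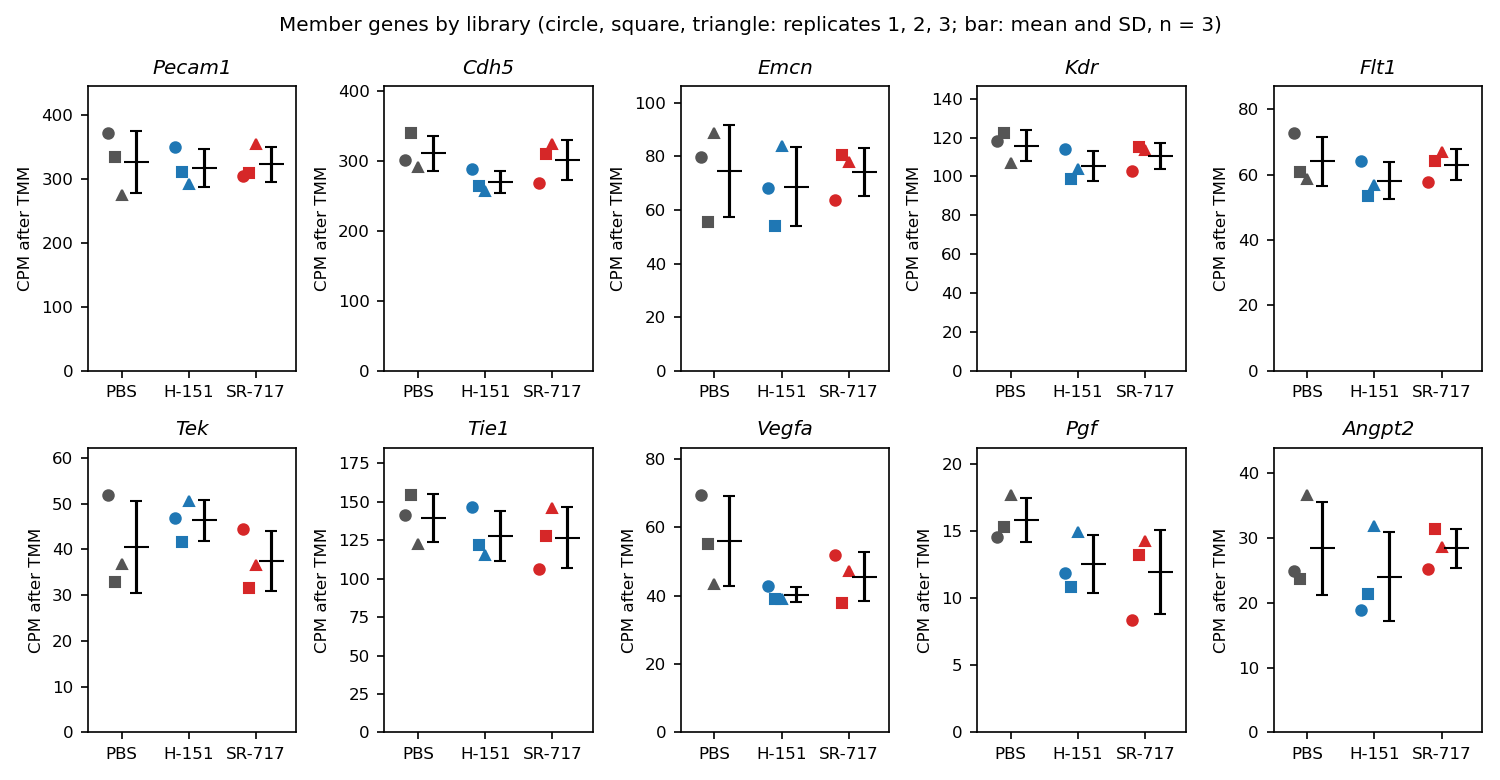
Level of each of the 10 genes in CPM in every library, by group (points) with the group mean. The H-151 libraries of Vegfa (38.95 to 42.99 CPM) and of Cdh5 (257.6 to 288.4 CPM) sit below the PBS libraries (43.34 to 69.50 and 291.0 to 339.1 CPM), while Pecam1, Kdr and Flt1 overlap in all groups.

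To set the STING activator against the control injection, the SR-717 and PBS libraries were compared first. None of the 10 genes passed the test, and apart from Pgf and Vegfa the log2 fold changes ran from -0.13 (Tie1) to 0.01 (Angpt2). The largest was Pgf at 11.9 ± 3.15 CPM (SD, n = 3) against 15.8 ± 1.64 CPM with PBS, a log2 fold change of -0.40 ± 0.25 (SE) with a 95% interval of -1.01 to 0.21. Without SR-717 replicate 1 its value was -0.19. Vegfa followed at 45.6 ± 7.18 against 56.0 ± 13.1 CPM, a log2 fold change of -0.28 ± 0.22, which was -0.10 without PBS replicate 1 and -0.43 without PBS replicate 3. Pecam1, Emcn, Flt1 and Angpt2 lay at -0.00, 0.00, -0.01 and 0.01. The adjusted p was 0.9999 for each gene by edgeR's quasi-likelihood test. For 7 of 10 genes the interval lay within a 1.5-fold change in either direction, and for 9 within a 2-fold change. Across all 14070 genes tested, 0 (0%) passed an adjusted p of 0.05 by edgeR and 0 by DESeq2, with 97 at an unadjusted p under 0.05 by edgeR. A looser rule, an unadjusted p under 0.05 with at least a 1.5-fold change, took in 73 genes (0.519%) and none of the 10, and 443 genes and again none of the 10 with the replicate number as a block. SR-717 libraries lay wholly above PBS for 1.36% of all genes and wholly below for 2.62%, and among the 10 genes Pgf alone was of the latter kind. The median log2 fold change was -0.05 over the 10 genes and 0.01 over all genes tested. Without the 2 libraries that stood apart these medians were 0.019 and -0.003, and 7 of the 10 estimates were above 0, against 2 with all libraries.

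H-151 was then set against the same PBS libraries, so that both comparisons share their controls. Here 9 of 10 estimates were below 0, Tek being the exception, but none passed the test. Vegfa was at 40.4 ± 2.29 CPM (SD, n = 3) against 56.0 ± 13.1 CPM, a log2 fold change of -0.47 ± 0.18 (SE), or 0.721 times the control level, with a 95% interval of -0.91 to -0.04. Its two-sided unadjusted p was 0.0378 and its adjusted p 0.9999 by edgeR's quasi-likelihood test. The Vegfa estimate was -0.28 without PBS replicate 1 and -0.62 without PBS replicate 3, which were the highest and the lowest controls. With the replicate number as a block it was -0.45 ± 0.14, with an unadjusted p of 0.0198 by edgeR. Cdh5 was at 269.8 ± 16.4 against 310.6 ± 25.2 CPM, a log2 fold change of -0.20 ± 0.14 that did not pass the test. Pgf followed at -0.34 ± 0.19 and Angpt2 at -0.24 ± 0.27, while Tek was at 0.19 ± 0.20. Leaving out 1 library moved Angpt2 from -0.50 (H-151 replicate 3) to -0.01 (PBS replicate 3) and Tek from 0.07 (PBS replicate 2) to 0.41 (PBS replicate 1, unadjusted p of 0.0326 and adjusted p of 0.9997 by edgeR). With the block the estimates were -0.35 ± 0.16 for Pgf, -0.25 ± 0.13 for Angpt2 and 0.21 ± 0.15 for Tek, and no gene passed the test. The interval lay within a 1.5-fold change for 5 genes and within a 2-fold change for all 10. Among 14085 genes tested, 0 (0%) passed an adjusted p of 0.05 by edgeR and 0 by DESeq2, with 91 at an unadjusted p under 0.05 by edgeR. The looser rule took in 60 genes (0.426%), or 262 with the replicate block, and none of the 10 in either case, since the Vegfa change was smaller than 1.5-fold. H-151 libraries lay wholly above PBS for 1.60% of all genes and wholly below for 2.15%, the latter holding Cdh5 and Vegfa. The median log2 fold change was -0.14 over the 10 genes and -0.03 over all genes tested.

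The activator and the inhibitor were also compared directly. The 10 genes overlapped between SR-717 and H-151 in every case. The largest estimate was for Tek, at 37.5 ± 6.50 CPM (SD, n = 3) with SR-717 against 46.4 ± 4.55 CPM with H-151, a log2 fold change of -0.30 ± 0.17 (SE). The Tek estimate was -0.45 without SR-717 replicate 1, with an unadjusted p of 0.017 and an adjusted p of 0.9997 by edgeR, and -0.19 without SR-717 replicate 2. Angpt2 was at 0.24 ± 0.23 in the other direction, from 0.10 without H-151 replicate 1 to 0.50 without H-151 replicate 3. Vegfa was at 0.18 ± 0.15, from 0.08 without SR-717 replicate 1 to 0.30 without SR-717 replicate 2. The endothelial genes Pecam1, Kdr and Tie1 lay at 0.03, 0.07 and -0.01, and Cdh5, Flt1 and Emcn at 0.161, 0.118 and 0.115. Adjusted p-values ran from 0.9958 to 0.9994 by edgeR's quasi-likelihood test, and the interval lay within a 1.5-fold change for 6 genes and within a 2-fold change for all 10. Of 14151 genes tested, 0 (0%) passed an adjusted p of 0.05 by edgeR and 1 by DESeq2, and 146 had an unadjusted p under 0.05 by edgeR. The looser rule took in 107 genes (0.756%) and none of the 10. The SR-717 libraries lay wholly above H-151 for 2.23% of all genes and wholly below for 2.82%. The median log2 fold change was 0.09 over the 10 genes and 0.02 over all genes.

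**Figure D3:**
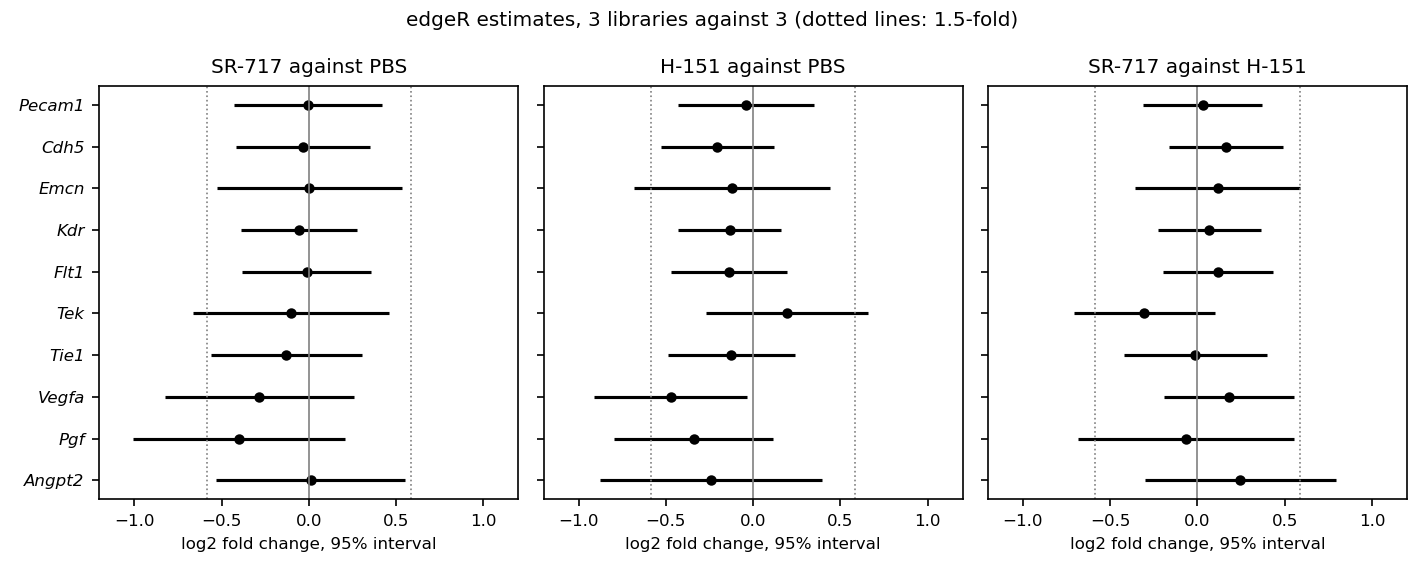
Log2 fold change of each gene with its 95% interval by edgeR, without the replicate block, in the 3 comparisons. Dotted lines mark a 1.5-fold change. Of the 30 intervals only that of Vegfa in H-151 against PBS (-0.91 to -0.04) leaves out 0, and it is not adjusted for the number of genes tested.

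The balance between ligands and receptors was followed as log2 ratios of TPM, in 6 ratios and 3 comparisons. Kdr and Flt1 kept a near constant ratio, with mean log2 values of 1.03 ± 0.16 in PBS, 1.05 ± 0.03 in H-151 and 1.00 ± 0.05 in SR-717 (SD, n = 3), so Kdr was at about 2 times the level of Flt1 in each group. The Vegfa to Kdr ratio was 0.203, -0.216 and -0.369 in PBS replicates 1 to 3 and -0.483, -0.421 and -0.471 in the H-151 libraries, which lay wholly below. The difference of -0.33 had an exact two-sided permutation p of 0.1, the smallest that 3 against 3 libraries allow, and an adjusted p of 0.9 over the 18 tests. In SR-717 the same ratio was -0.082, -0.644 and -0.301 and overlapped both other groups. The Angpt2 to Tek ratio was at -0.04 ± 0.42 with SR-717 and -0.63 ± 0.33 with H-151, and the groups overlapped (exact permutation p = 0.2, adjusted p = 0.9). No other ratio separated any pair of groups.

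Several of the endothelial genes varied together across libraries. Over the 9 libraries, Pearson's r of log2 CPM ran from -0.642 to 0.88 among the 21 pairs of the 7 identity and receptor genes, with a median of 0.407. Among the 10 pairs of Pecam1, Cdh5, Kdr, Flt1 and Tie1 it ran from 0.513 to 0.88, with a median of 0.754 and the highest value for Cdh5 with Kdr. These 5 genes were not set in advance as a group and leave out Emcn and Tek, so their high range follows in part from the choice. Values with these 5 genes were lower for Tek, from -0.642 (Cdh5) to 0.18 (Pecam1), and for Emcn, from -0.199 (Pecam1) to 0.407 (Flt1). Emcn paired with Angpt2 at 0.758, and Angpt2 with Pecam1 gave -0.601. These values describe 9 libraries that share a normalization and span 3 treatments, and they carry no test. The within-group spread of Kdr (an SD of 0.098 in log2 CPM) was at percentile 3.16 of 14294 genes and that of Cdh5 (0.116) at percentile 5.98, whereas Angpt2 (0.313) was at percentile 49.2, next to the median SD of 0.318. Among genes of a similar level the median SD was 0.23 for Kdr, 0.248 for Cdh5 and 0.262 for Angpt2. Against such genes Angpt2 was above the median, as were Emcn (0.292 against 0.23), Tek (0.257 against 0.235) and Vegfa (0.243 against 0.231), and the remaining members were below it.

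**Figure D4:**
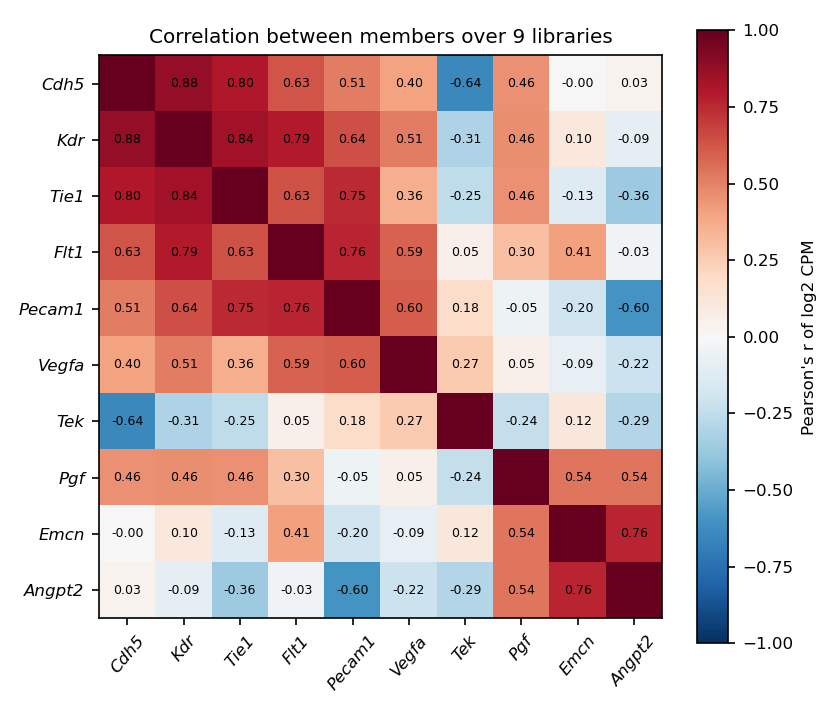
Pearson's r of log2 CPM between each pair of the 10 genes over the 9 libraries. Cdh5, Kdr, Tie1, Flt1 and Pecam1, a group not set in advance, form a block of positive values (0.513 to 0.88), and Emcn pairs with Angpt2 (0.758). Over the 21 pairs of the 7 identity and receptor genes the median was 0.407.

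The promoters of 3 receptor or identity genes and of the ligand gene Vegfa are shown because Kdr and Flt1 varied together over the 9 libraries (r = 0.79), whereas Vegfa and Emcn followed Kdr less closely (0.51 and 0.103). Each run is the 250 bases before a RefSeq start of the gene (GRCm38.p6), for Vegfa the more upstream of 2 starts, read 5′ to 3′ on the gene's own strand, with the letters GGAA or their reverse complement TTCC in capitals. GGAA is the core of the sites bound by ETS factors such as ERG and FLI1, which are known in endothelial gene control.
Kdr, chr5:75978456-75978705, minus strand: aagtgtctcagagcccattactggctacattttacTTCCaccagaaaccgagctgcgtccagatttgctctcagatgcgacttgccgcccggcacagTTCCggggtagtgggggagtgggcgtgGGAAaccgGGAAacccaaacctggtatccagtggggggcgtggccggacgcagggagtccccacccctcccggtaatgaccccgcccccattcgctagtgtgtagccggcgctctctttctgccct
Flt1, chr5:147726012-147726261, minus strand: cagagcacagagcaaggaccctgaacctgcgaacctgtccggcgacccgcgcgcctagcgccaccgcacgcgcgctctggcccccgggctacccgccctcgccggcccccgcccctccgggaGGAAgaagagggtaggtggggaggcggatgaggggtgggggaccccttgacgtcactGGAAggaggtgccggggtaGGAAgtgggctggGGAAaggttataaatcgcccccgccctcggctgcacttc
Emcn, chr3:137340828-137341077, plus strand: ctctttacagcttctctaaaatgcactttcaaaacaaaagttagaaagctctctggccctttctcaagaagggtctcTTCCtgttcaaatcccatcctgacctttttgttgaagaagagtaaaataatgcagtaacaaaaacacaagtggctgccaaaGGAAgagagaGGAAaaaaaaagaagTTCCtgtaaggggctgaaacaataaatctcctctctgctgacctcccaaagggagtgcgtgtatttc
Vegfa, chr17:46032378-46032627, minus strand: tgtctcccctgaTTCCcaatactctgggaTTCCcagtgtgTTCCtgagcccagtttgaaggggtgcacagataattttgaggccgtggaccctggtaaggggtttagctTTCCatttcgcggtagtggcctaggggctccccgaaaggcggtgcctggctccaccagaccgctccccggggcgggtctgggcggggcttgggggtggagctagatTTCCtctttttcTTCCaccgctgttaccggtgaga
The first 3 windows hold 4 matches each on both strands together and the Vegfa window holds 6. The core was present in 93.45% of 32851 promoter windows of the same length, with a median of 3 matches. The letters ACGTG, the core of the hypoxia response element (either strand), were in none of the 4 windows and in 16.57% of all windows. RefSeq gives Vegfa a further start inside the gene, whose window (chr17:46025164-46025413) holds 1 match of ACGTG and 2 of GGAA. That window lies wholly within the span of the gene, so its bases can be part of the transcript. The GC box GGGCGG (either strand) was found 2 times for Kdr, 3 times for Flt1, 2 times for Vegfa and 0 times for Emcn, and in 32.74% of all windows. Tie1, not shown, followed Kdr more closely than Flt1 did (r = 0.836), and its window holds 7 matches of GGAA and 0 GC boxes. The window of Tek (r = -0.312 with Kdr) holds 2 and 0. Those of Pgf (0.464) hold 0 matches of GGAA, and 0 and 2 GC boxes. Whether these letters go with the correlations was not tested. The table had an entry for 7 of the 10 genes, and a match describes letters only. Bases outside the windows were not searched.

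The genes lie on 7 chromosomes of GRCm38. Kdr (75932827 to 75978458) and Flt1 (147561604 to 147726011) are both on chromosome 5, Tek (94739289 to 94874976) and Tie1 (118471191 to 118490061) are on chromosome 4, and Cdh5 (104101625 to 104144511) and Angpt2 (18690263 to 18741562) are on chromosome 8. The remainder are Pecam1 on chromosome 11 (106654217 to 106750628), Emcn on 3 (137341067 to 137432185), Vegfa on 17 (46016993 to 46032369) and Pgf on 12 (85166635 to 85177790). The values above are given per gene, so no isoform is resolved.

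Other endothelial and vessel wall genes were measured beside the 10. Of 26 further endothelial identity genes, including the transcription factor genes Erg and Sox17, the junction gene Cldn5 and Vwf for von Willebrand factor, 0 passed the test in any comparison. Their median log2 fold change was -0.05 for SR-717 against PBS, -0.12 for H-151 against PBS and 0.11 for SR-717 against H-151, against 0.01, -0.03 and 0.02 over all genes. Mean CPM was lower than with PBS for 19 of 26 with SR-717 and for 20 of 26 with H-151, but for 13 and 14 of 26 without the 2 libraries that stood apart. Robo4, the gene for a vessel-stabilizing receptor, was at 48.64, 50.52 and 42.06 CPM with PBS, 38.15, 34.24 and 41.48 CPM with H-151 and 44.79, 49.60 and 50.93 CPM with SR-717, so that H-151 lay below both other groups without passing the test. It was the only 1 of the 26 to do so in either comparison. Over all genes, H-151 lay wholly below PBS for 2.15%, and SR-717 wholly above H-151 for 2.23%. The 7 arterial genes, 5 venous and sinusoidal genes, 5 lymphatic genes and 7 tip cell genes (sprouting cells, a list that holds Angpt2 too) also gave 0 genes past the test or the looser rule in any comparison. Gja5, an arterial connexin gene, was at 35.68, 28.49 and 29.56 CPM with H-151 and 37.12, 43.83 and 46.07 CPM with SR-717, which did not overlap, as for 2.23% of all genes. Of the other arterial genes, Efnb2 and Hey1 had estimates below 0 in that comparison (-0.13 and -0.05) and the rest above 0. For the 10 mural cell genes, which mark pericytes and smooth muscle, 0 passed and the medians were -0.15, -0.14 and -0.10.

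None of the other genes of the ligand and receptor families passed the test. This held for Vegfb, Vegfc, Vegfd, Flt4, Nrp1 and Nrp2 in all 3 comparisons, and their median log2 fold changes were -0.09, -0.10 and 0.07. The neuropilin gene Nrp2, a co-receptor, was the most counted of them at 307.7 to 498.4 CPM, and Vegfd was lowest at 1.28 to 5.32 CPM. In the angiopoietin pathway 0 of 4 genes passed, among them Angpt1, whose product activates TIE2, at 6.09 to 20.04 CPM over the 9 libraries. In the broader KEGG VEGF signaling pathway, 0 of the 55, 56 and 55 genes tested passed an adjusted p of 0.05. By the looser rule 1 was taken in, Prkcb, a protein kinase C gene, with SR-717 at 22.58, 23.27 and 10.19 CPM and H-151 at 11.20, 10.36 and 10.04 CPM. Its log2 fold change was 0.83 ± 0.33, with an adjusted p of 0.9958 by edgeR and overlapping groups.

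Among 12 genes of the hypoxia response, which includes known regulators of Vegfa, 0 passed the test. Mean CPM was higher with SR-717 than with PBS for 9 of 12 and higher than with H-151 for 11 of 12, but for 7 and 4 of 12 without the 2 libraries that stood apart. H-151 exceeded PBS for 5 of 12, and for 8 of 12 without PBS replicate 1. Adm, which encodes the vessel-acting peptide adrenomedullin, was at 8.703, 7.18 and 5.614 CPM with SR-717 and 3.737, 5.444 and 2.845 CPM with PBS, a log2 fold change of 0.85 ± 0.33 with an adjusted p of 0.9999 by edgeR, and was the single gene of this list within the looser rule (0.519% of all genes). In SR-717 replicate 1 Slc2a1, a glucose transporter gene, was at 200.2 CPM and Hif1a, the gene for an oxygen-regulated transcription factor, at 612.5 CPM, against 23.02 to 85.54 and 65.45 to 214.7 CPM in all others. Vegfa, at 51.86 CPM, was not outside the range of the other libraries there.

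The summed level of the 10 genes was steadier than that of most other tissue markers. It ran from 1016 to 1246 CPM over the 9 libraries, a factor of 1.23, and that of the 26 identity genes from 1812 to 2189 CPM, a factor of 1.21. The 3 ligand genes were a small part of the first sum, at 71.11 to 109 CPM together, a factor of 1.53, and Pgf alone spanned 2.12. The summed mural cell genes spanned a factor of 1.46, osteoblast markers 4.78, neutrophil markers 24.1, erythroid markers 34.1 and chondrocyte markers 61.1. The other marker sums spanned factors of 1.78 (adipocyte), 2.32 (fibroblast), 2.37 (macrophage), 3.84 (hypertrophic chondrocyte), 4.53 (keratinocyte), 5.74 (muscle), 7.04 (platelet) and 8.01 (B cell). The lymphatic genes spanned a factor of 2.53 and the vessel genes that respond to inflammation one of 4.64. The sum of Sele, Selp, Icam1 and Vcam1, adhesion molecules of activated endothelium, was 361.1 CPM in PBS replicate 1 and 385.8 CPM in SR-717 replicate 1 but 83.2 to 148.7 CPM in the other 7 libraries. Selp, the gene for P-selectin, which platelets also hold, was at 185.2 and 119.7 CPM in those libraries and at 10.32 to 48.07 CPM elsewhere. Sele, for E-selectin, was at 40.30 and 12.49 CPM against 1.05 to 5.43 CPM. Icam1 was at 71.11 and 158 CPM against 25.57 to 39.68 CPM, and Vcam1 at 64.5 and 95.63 CPM against 36.64 to 60.3 CPM. The neutrophil and macrophage sums were also highest in SR-717 replicate 1 (14130 and 2461 CPM). Which cells these transcripts came from was not tested. None of these 4 genes passed the test between groups.

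**Figure D5:**
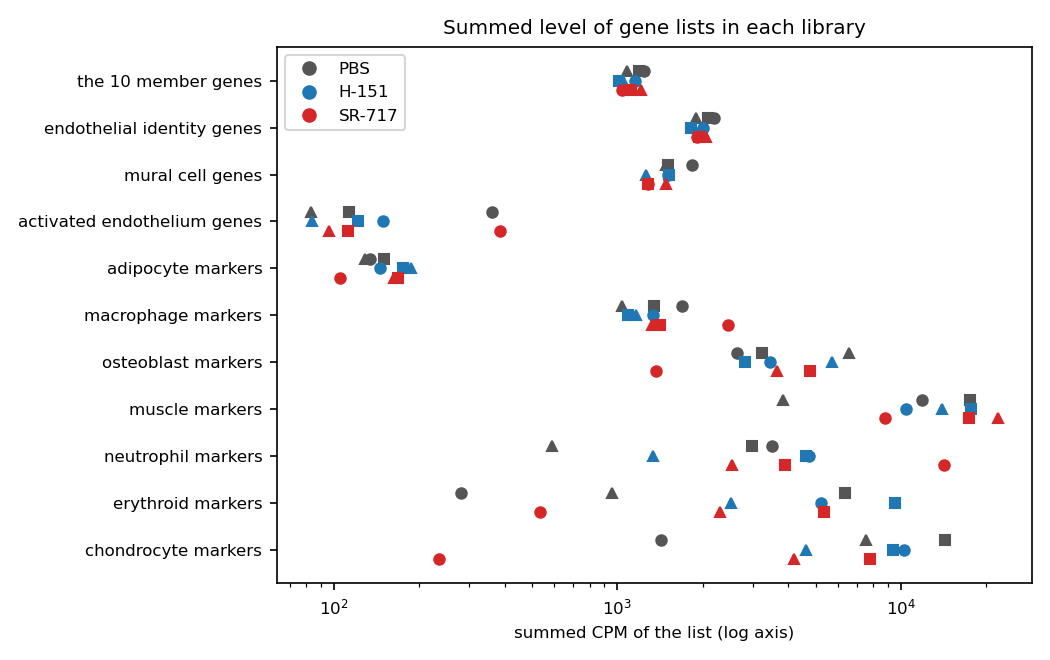
Summed CPM of gene lists in each of the 9 libraries (log axis). The sums of the 10 genes and of the endothelial identity genes stay within factors of 1.23 and 1.21, whereas that of the chondrocyte markers spans a factor of 61.1, lowest in SR-717 replicate 1 (234.9 CPM).

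Beside the marker sums, Pgf tracked neutrophil markers inversely (Pearson's r = -0.9 over 9 libraries, -0.864 without the 2 that stood apart), and osteoblast markers directly (0.817). Emcn and Angpt2 correlated with osteoblast markers at 0.604 and 0.601, and at 0.893 and 0.873 without the 2 libraries. Tek tracked fibroblast markers at 0.721. These values are from 120 pairs of gene and marker list and were picked after the values were seen, so they are descriptions without a test, and the part that the share of each cell type played in the values of Pgf, Emcn, Tek and Angpt2 was not tested.

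The genes whose pattern over the 9 libraries was most like the mean of the 7 identity and receptor genes were Ramp2 (r = 0.894), Dusp4 (0.891), Heg1 (0.857), Dcbld2 (0.842), Trnp1 (0.84), Wdr53 (0.831), Ttc19 (0.817) and Sema3g (0.816), out of 11386 genes with a mean of at least 5 CPM. Ramp2, a co-receptor for adrenomedullin, belongs to the endothelial identity list. The 26 genes of that list had a median r of 0.538 with the mean, against -0.02 over all genes. They ranged from -0.297 (Clec14a) to 0.894 (Ramp2), and the ETS factor genes Erg and Fli1 were at 0.011 and -0.176. The ranking leaned on the set of libraries, since 1 of the 8 genes was still among the first 8 without the 2 libraries that stood apart. Vegfa was most like Rras (0.932), Adra2a (0.931) and Sema3f (0.919), Pgf was most like Nav1 (0.956), Hapln4 (0.952) and Rpp14 (0.947), and Angpt2 was most like Aimp1 (0.945), Atp6v1g1 (0.942) and Pak1 (0.938).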

How the data were processed

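Callus RNA from 9 libraries was sequenced by the study's service provider after poly(A) selection, with strand-specific paired reads. The authors deposited 1 table with an expected count and a TPM for each gene and library. The submitters' processing notes name mm10, and the aligner, the counter and the use of strand are not given in the sources used here. Expected counts held decimals for 3168 genes and were rounded to whole numbers, where whole counts had been planned for. The deposited TPM was used for levels between genes and for ratios. The labels' extraction text is worded for cell lines, while their tissue is bone.

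Genes were filtered with filterByExpr (minimum count 10, total 15) and scaled by TMM in edgeR 4.0.16 (R 4.3.3). Each comparison was fitted on its own 6 libraries by the quasi-likelihood test, two-sided, with Benjamini-Hochberg adjustment over all genes tested. The 95% intervals use the total degrees of freedom of that test. CPM in the text is TMM-scaled over all 9 libraries, without a gene filter. DESeq2 1.42.0, other scalings and filters, a fit on all libraries, a replicate block and leaving out libraries were the alternatives. The pipeline was tested on simulated data. Ratios were tested by exact permutation. Named genes were the 10 members, every gene of the vessel, hypoxia and VEGF pathway lists past a threshold, and the 8 or 3 genes of highest Pearson's r. Any others were named after their values were seen. The members and lists were chosen with earlier results of these data known, and no list is independent evidence. Counts of list genes by direction without the 2 libraries that stood apart were added after seeing the data. The looser rule is an unadjusted p under 0.05 with a 1.5-fold change.

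The labels number replicates alike in each group. Deviations from the group means of libraries with the same number correlated at 0.65, 0.341 and 0.139 (SR-717 and PBS) and at 0.304, 0.485 and 0.503 (H-151 and PBS). These libraries were therefore taken as paired in further fits with the replicate number as a block, while the main fits leave the pairing out. Replicate 1 stood apart in both the SR-717 and the PBS group, and the part this played in their correlations was not tested. The number is the only source of the pairing, and all errors, p-values and intervals are from fits without the block unless the block is named. Positions are from GENCODE M21, promoters from RefSeq, both on GRCm38, the assembly that mm10 names.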

Additional observations from a re-analysis of the deposited data

How the results depend on the processing

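With 3 libraries a group and no replicate block, the 95% interval reached past a 1.5-fold change for 3, 5 and 4 of the 10 genes in the 3 comparisons. These fits therefore did not exclude a change of that size for them. With the block, the standard error for H-151 against PBS was smaller for each of the 10 genes. It was 0.127 in place of 0.268 for Angpt2 and 0.111 in place of 0.236 for Emcn. Intervals with the block were not counted. No gene among the 10 passed an adjusted p of 0.05 under any alternative. With the looser rule, counts over all genes moved more. For SR-717 against PBS they went from 73 to 138 with DESeq2, 194 with no filter, 37 with a mean count of at least 50, 176 with all libraries in one fit, 443 with the replicate block and 118 without both libraries that stood apart, and leaving out 1 library gave 95 to 319. For H-151 against PBS they went from 60 to 127 with no filter, 28 with a mean count of at least 50 and 262 with the block, and leaving out 1 library gave 43 to 698. For SR-717 against H-151 they went from 107 to 209 with DESeq2, 223 with no filter, 61 with a mean count of at least 50 and 171 with all libraries, and leaving out 1 library gave 64 to 661. Leaving out 1 library gave 0 to 1 of the 10 genes past the looser rule for H-151 against PBS, Vegfa without PBS replicate 3. DESeq2 called 1 gene for SR-717 against H-151 at an adjusted p of 0.05. The cause of these shifts was not tested.

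For SR-717 and H-151, libraries with the same number correlated at 0.342, 0.062 and 0.079 and were not treated as paired (2 of 6 correlated best with their own number, against 3 of 6 for SR-717 and PBS and 6 of 6 for H-151 and PBS), and the block gave 143 genes. The block changed no other call.

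Of 400 alternative values for the fold changes of the 10 genes, 38 changed sign. The median log2 ratio of mean TPM over all genes was -0.085, -0.045 and -0.050 in the order of comparisons used here, against 0.014, -0.025 and 0.019 for the fitted values. For SR-717 against PBS, the block gave 0.002 for Pecam1 and no filter gave -0.001 for Emcn. Without both libraries that stood apart, Pecam1 was at 0.148, Cdh5 at 0.033, Kdr at 0.023, Flt1 at 0.157 and Tie1 at 0.004. With TPM in place of CPM, Emcn was at -0.10 and Angpt2 at -0.073, and for SR-717 against H-151 Pecam1 was at -0.044 and Kdr at -0.006. Leaving out 1 library in SR-717 against PBS gave -0.109 to 0.093 for Pecam1, -0.094 to 0.043 for Cdh5, -0.179 to 0.151 for Emcn, -0.066 to 0.082 for Flt1, -0.24 to 0.11 for Tek and -0.11 to 0.24 for Angpt2. In H-151 against PBS it gave -0.148 to 0.063 for Pecam1 and -0.294 to 0.028 for Emcn. In SR-717 against H-151 it gave -0.043 to 0.105 for Pecam1, -0.032 to 0.282 for Emcn, -0.13 to 0.10 for Tie1 and -0.21 to 0.14 for Pgf.

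Of 162 alternative values for the ratios, 19 changed sign. Leaving out 1 library gave, for SR-717 against PBS, -0.121 to 0.037 (Kdr to Flt1), -0.22 to 0.22 (Tek to Tie1), -0.14 to 0.39 (Angpt2 to Tek), -0.40 to 0.16 (Pgf to Vegfa) and -0.66 to 0.06 (Angpt2 to Angpt1). For H-151 against PBS it gave -0.069 to 0.088 (Kdr to Flt1), -0.12 to 0.38 (Pgf to Vegfa) and -0.35 to 0.23 (Angpt2 to Angpt1). For SR-717 against H-151 it gave -0.014 to 0.267 (Vegfa to Kdr), -0.492 to 0.034 (Pgf to Vegfa) and -0.58 to 0.11 (Angpt2 to Angpt1). Of the 8 genes most like the endothelial members, 5 were among the first 8 by Spearman's rho and 1 without both libraries that stood apart.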
